A study of Homo sapiens with 4 samples.

Results

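Immunoglobulin gene segments encode the antibody that a B cell makes. They were taken from the table of read counts by gene name, which gave the heavy, kappa and lambda constant genes, the V, D and J segments of the 3 loci, their copies elsewhere in the genome (orphons), and the IGLL genes that resemble light chains. Of 61267 genes in the table, 401 carried such a name, and the 66 with at least 1 read in any library are described here. They comprised 17 constant segments, 8 heavy V segments, 30 light V segments (18 kappa and 12 lambda), 5 kappa J segments, 5 lambda J segments and IGLL5. None of 27 heavy D and 9 heavy J segments had a read.

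An antibody pairs heavy chains with light chains. Each chain joins a variable region, which a developing B cell assembles in its DNA by recombining V, D and J segments (V and J in light chains), to a constant region. The heavy constant gene in use sets the isotype, and class switching replaces the mu gene with a gamma, alpha or epsilon gene further along the locus. The light chain is either kappa or lambda, and a clone of B cells carries its own rearranged heavy and light V segments, so that reads of V segments describe the clone. Diffuse large B-cell lymphoma arises from mature B cells, which have already assembled their V regions.

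RNA sequencing was performed on SU-DHL-2, a human line established from a diffuse large B-cell lymphoma. The 2 groups were cells given Spautin-1, a small-molecule inhibitor of ubiquitin-specific proteases, at 10 µM for 36 h, and cells given the solvent alone (vehicle), with 2 libraries each. All cells are labelled wild type and belong to the same line. The comparison asks how exposure to the compound changes the transcripts of the line. The libraries held 34115420 to 38362526 reads assigned to genes. The labels give lymph node as the source. Markers of B cells were present: 9 of 9 B-cell markers averaged at least 1 CPM (read counts scaled to library size, here with TMM factors), including MS4A1 and PAX5. Of 8 T-cell markers and 6 myeloid markers, 0 did, and TRAC, which encodes the T-cell receptor alpha constant region, was at 0 in the 4 libraries. Of 3 erythroid markers, 2 averaged at least 1 CPM: HBB had 6.66 and 6.61 CPM in Spautin-1 libraries and 5.13 and 6.73 CPM in vehicle libraries, and HBA1 had 1.67 to 3.04 CPM. Summed B-cell markers stood at 1073 and 1033 CPM in Spautin-1 libraries, against 804 and 717 CPM in vehicle libraries. MS4A1 alone gave 629 and 608 CPM of it in Spautin-1 libraries, against 442 and 379 CPM in vehicle libraries. MS4A1, CD22 and HLA-DRA were called higher (edgeR adjusted p under 0.05), while CD79B and BLK lay lower in both Spautin-1 libraries and did not pass. In bulk libraries, fewer cells of a type and less RNA per cell cannot be told apart.

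The reference sequences of the segments show which rows of the table are easy to separate and which are not. All sequences below are from GENCODE 29 on GRCh38 and run 5′ to 3′. The kappa J segments join a kappa V segment to IGKC and are shown because their read shares differed between the groups. They lie on the minus strand of chromosome 2, in the order chr2:88861886-88861923, chr2:88861525-88861563, chr2:88861221-88861258, chr2:88860886-88860922 and chr2:88860568-88860605. Capitals mark TTNGGNNNNGGN, which holds the codons of the phenylalanine-glycine-X-glycine motif of light-chain J regions. IGKJ1 shares 71.1% to 81.6% of its bases with the other kappa J segments, and the longest run in common is 15 bases, with IGKJ4. Of 1894305 consecutive windows of 38 bases in the longest transcripts of 19702 protein-coding genes, 0.629% hold the motif on the transcript strand and 1.33% on either strand.
IGKJ1: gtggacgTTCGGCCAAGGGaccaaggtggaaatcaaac
IGKJ2: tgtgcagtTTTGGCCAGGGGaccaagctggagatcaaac
IGKJ3: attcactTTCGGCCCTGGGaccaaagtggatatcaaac
IGKJ4: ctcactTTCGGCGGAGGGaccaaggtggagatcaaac
IGKJ5: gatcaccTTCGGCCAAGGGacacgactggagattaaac

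The V segments that took most reads have close relatives in the table, and a heavy pair is printed to show how far apart they are. Capitals mark the bases that differ between the members of the pair or have no counterpart. The first 290 bases of the V exon are given for IGHV4-34 (chr14:106373675-106373964, minus strand) and IGHV4-4 (chr14:106011939-106012228, minus strand), whose V exons are 93.4% identical.
IGHV4-34: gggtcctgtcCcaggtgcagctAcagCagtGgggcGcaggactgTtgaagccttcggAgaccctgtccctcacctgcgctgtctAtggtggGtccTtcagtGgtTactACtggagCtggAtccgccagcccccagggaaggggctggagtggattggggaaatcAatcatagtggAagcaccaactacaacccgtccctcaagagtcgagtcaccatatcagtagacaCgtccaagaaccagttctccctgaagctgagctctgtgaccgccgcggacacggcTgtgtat
IGHV4-4: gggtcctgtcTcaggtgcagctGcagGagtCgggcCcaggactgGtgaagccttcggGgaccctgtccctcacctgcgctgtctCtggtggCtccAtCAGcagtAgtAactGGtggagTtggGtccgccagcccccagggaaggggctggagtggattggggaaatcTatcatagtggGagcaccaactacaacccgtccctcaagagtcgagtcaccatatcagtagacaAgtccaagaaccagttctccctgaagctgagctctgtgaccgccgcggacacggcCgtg

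Transcripts of the gamma genes are 96.6% to 97.1% identical in pairs, with runs of 157 to 304 identical bases, so that reads could be split among them by the counting. The hinge is where IGHG3 differs most visibly from IGHG1: IGHG1 has 1 hinge exon (chr14:105742341-105742385, minus strand) and IGHG3 has 4, of which the outer exons lie at chr14:105770669-105770719 and chr14:105770105-105770149. Capitals mark TGCCCA, which overlaps the cysteine codons that link the heavy chains, and each exon holds 2 copies. Of 1598038 windows of 45 bases in the same transcripts, 0.0228% hold at least 2 copies on the transcript strand and 0.0385% on either strand. IGHE is far from the gamma genes, with 67.1% identity to IGHG3 and no shared run above 13 bases.
IGHG1 hinge 1: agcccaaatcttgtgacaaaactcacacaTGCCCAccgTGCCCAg
IGHG3 hinge 1: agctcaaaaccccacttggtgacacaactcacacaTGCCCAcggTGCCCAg
IGHG3 hinge 4: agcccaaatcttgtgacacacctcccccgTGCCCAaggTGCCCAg

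Immunoglobulin reads took a smaller share of the libraries after Spautin-1. The 66 segments together took 0.114% and 0.115% of all reads in Spautin-1 libraries, against 0.180% and 0.222% in vehicle libraries. IGHG3 and IGHG1 held 64.1% of the 230337 reads of the segments, and the 10 most abundant held 92.2%. After the filter on low counts 31 segments could be tested. Of these, 19 were lower and 1, IGKJ1, was higher (quasi-likelihood F test in edgeR, Benjamini-Hochberg adjustment over 18368 genes, threshold 0.05). Over all genes tested, 10.5% were called lower and 11.5% higher. The median log2 fold change of the 31 was -0.83, against -0.01 over all genes tested. IGKV3OR2-268 and IGHV5-78 passed the filter through the vehicle libraries, having fewer than 10 reads in each Spautin-1 library, so that their place among the tested rows rests on the group where they were higher. IGKV3OR2-268 is among the 19 called lower, and both rows count in the median of the 31. The other 35 segments had at most 30 reads over the 4 libraries, and 24 of them had 5 or fewer.

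In 27 of the 31, both Spautin-1 libraries lay below both vehicle libraries, and in 1 above. Over all genes tested these shares were 30.6% and 30.8%. The 27 include IGKV3OR2-268 and IGHV5-78, whose place below was favoured by the filter that they passed through the vehicle libraries. The groups overlapped for IGHE, IGLC5 and IGHGP. The count of lower segments was 14 without Spautin-1 replicate 1 and 10 without Spautin-1 replicate 2. It was 20 without vehicle replicate 1 and 18 without vehicle replicate 2. Nothing in the labels says whether a group's libraries were grown as separate cultures, and p-values therefore measure a spread that may be technical.

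**Figure D1:**
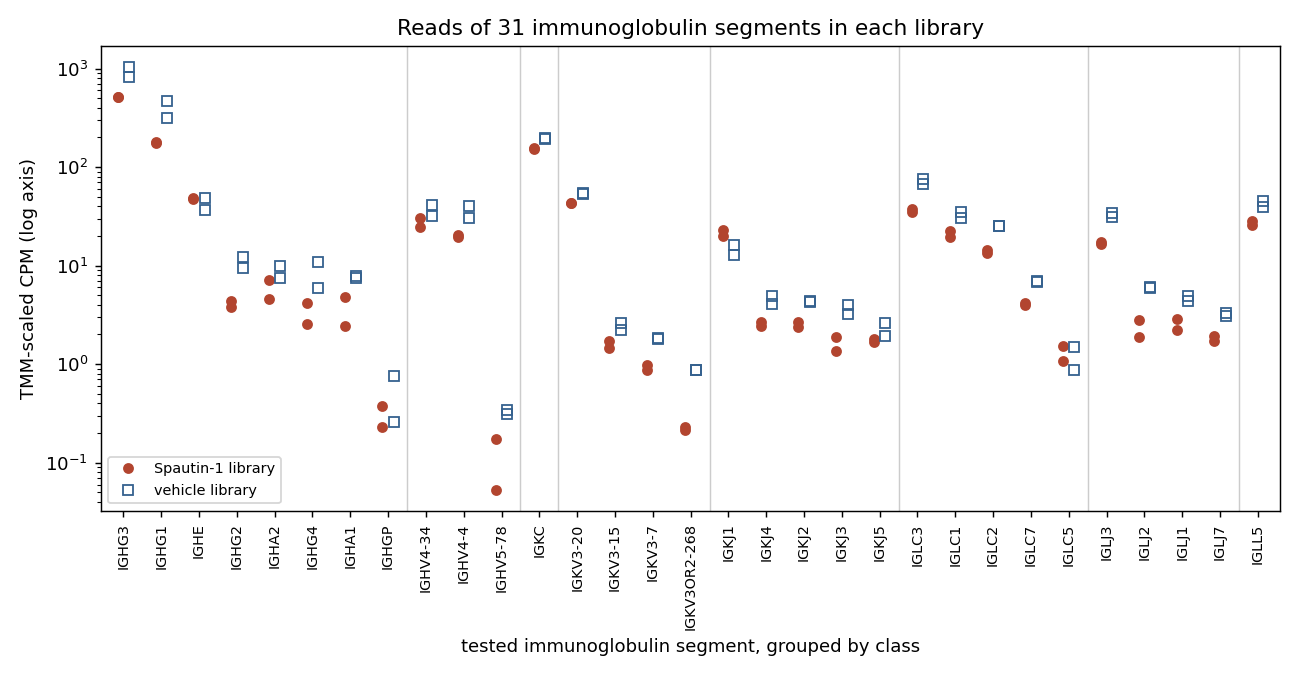
TMM-scaled CPM of the 31 tested segments in each library, on a log axis; filled circles are Spautin-1 libraries, open squares vehicle libraries, and grey lines part the classes. Both circles lie below both squares for 27 segments, and IGKJ1 is the segment with both circles above.

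**Figure D2:**
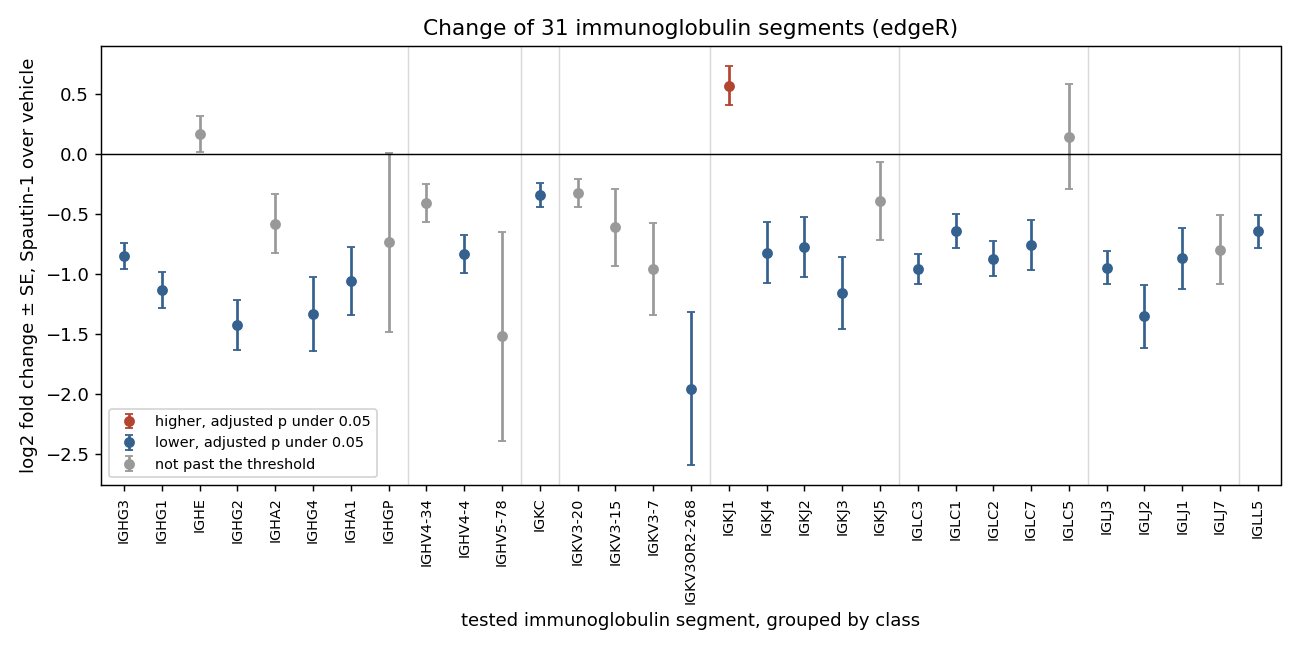
Log2 fold change, Spautin-1 over vehicle, of the 31 tested segments with the standard error of the edgeR fit. The 19 blue points passed the threshold below 0 and the red point, IGKJ1, above 0, while the 11 grey points did not pass.

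Among constant segments, which carry the effector functions of the heavy chain and the fixed end of the light chain, 10 of 14 tested fell and 0 rose. Over all genes tested, 10.5% were called lower and 11.5% higher. The gamma rows, the alpha rows, and IGLC2 with IGLC3 are near copies that may exchange reads. The 10 calls are therefore not separate observations. The summed level of the constant segments was 991 and 988 CPM in Spautin-1 libraries, against 1527 and 1938 CPM in vehicle libraries, a log2 ratio of group means of -0.81. The Spautin-1 libraries differed from each other by far less than the vehicle libraries did. This sum and the shares below were not tested, since with 2 libraries a group the smallest p of an exact permutation test is 0.333. Without vehicle replicate 2 the log2 ratio was -0.63, and without vehicle replicate 1 it was -0.97.

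Heavy constant reads were mainly of gamma isotype. IGHG3 (chr14:105764503-105771405), the gamma-3 constant gene, was the most abundant segment, with 517 and 511 CPM in Spautin-1 libraries and 819 and 1035 CPM in vehicle libraries. Its log2 fold change was -0.85 ± 0.11 (SE; edgeR adjusted p = 0.000262). IGHG1 (chr14:105736343-105743071), the gamma-1 gene, had 179 and 178 CPM in Spautin-1 libraries, against 316 and 470 CPM in vehicle libraries. It fell by 1.14 ± 0.15 on the log2 scale (edgeR adjusted p = 0.000316). Both genes were lower in both Spautin-1 libraries, and the 2 vehicle libraries stood apart from each other by more than the 2 Spautin-1 libraries.

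The other gamma genes followed at much lower counts. IGHG2 (chr14:105639559-105644790) had 3.76 and 4.36 CPM in Spautin-1 libraries, against 9.50 and 12.3 CPM in vehicle libraries, and fell by 1.43 ± 0.21 on the log2 scale (edgeR adjusted p = 0.000664). IGHG4 (chr14:105620506-105626066) had 4.13 and 2.57 CPM in Spautin-1 libraries, against 5.96 and 10.9 CPM in vehicle libraries, and fell by 1.33 ± 0.31 (edgeR adjusted p = 0.00915). Without vehicle replicate 2, the IGHG4 change was -0.83. The gamma pseudogene IGHGP was tested at 8 to 29 reads a library and its groups overlapped. Because the gamma genes are near copies, their reads were also summed, an alternative added after the data were seen. The sum was 705 and 696 CPM in Spautin-1 libraries and 1150 and 1529 CPM in vehicle libraries, a log2 ratio of -0.94.

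IGHE (chr14:105597691-105601728), the epsilon constant gene of IgE, was not called in either direction. It had 46.9 and 49.0 CPM in Spautin-1 libraries, against 36.5 and 48.9 CPM in vehicle libraries. Its log2 fold change was 0.17 ± 0.15 and did not pass the test (edgeR adjusted p = 0.464). The value turned on which vehicle library was used: it was -0.03 without vehicle replicate 1 (edgeR adjusted p = 0.87), and 0.40 and called higher without vehicle replicate 2 (edgeR adjusted p = 0.00452). Isotype shares are taken within a library and need no scaling. Epsilon took 6.16% (95% exact Clopper-Pearson interval 5.88 to 6.44) and 6.50% (6.20 to 6.80) of heavy constant reads in Spautin-1 libraries, against 3.03% (2.87 to 3.20) and 3.07% (2.93 to 3.21) in vehicle libraries. The groups did not overlap, and the gap was much wider than that between replicates. Per kilobase of exon the epsilon share was 10.3% and 10.8% in Spautin-1 libraries, against 5.16% and 5.22% in vehicle libraries.

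Relative to the main gamma gene, there were 9.06 and 9.59 IGHE reads per 100 IGHG3 reads in Spautin-1 libraries, against 4.45 and 4.73 in vehicle libraries. Gamma took 92.6% and 92.2% of heavy constant reads in Spautin-1 libraries, against 95.7% and 95.8% in vehicle libraries. Within the gamma reads, IGHG3 took 73.4% and 73.5% in Spautin-1 libraries, against 71.2% and 67.7% in vehicle libraries. The IGHG3 share was higher in both Spautin-1 libraries, but the 2 vehicle libraries differed from each other by more than vehicle replicate 1 differed from either Spautin-1 library. The intervals above and those below cover counting error only, and are too narrow if mates of a read pair were counted separately.

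The alpha genes encode the constant region of IgA. IGHA1 (chr14:105703995-105708665) had 4.85 and 2.45 CPM in Spautin-1 libraries, against 7.77 and 7.51 CPM in vehicle libraries, a log2 fold change of -1.06 ± 0.28 (edgeR adjusted p = 0.0188). It was -1.65 without Spautin-1 replicate 1, and -0.65 and no longer called without Spautin-1 replicate 2 (edgeR adjusted p = 0.185). IGHA2 (chr14:105583731-105588395) had 4.53 and 7.16 CPM in Spautin-1 libraries, against 7.43 and 10.0 CPM in vehicle libraries, and did not pass at -0.58 ± 0.25 (edgeR adjusted p = 0.112). It was called lower without Spautin-1 replicate 2 (edgeR adjusted p = 0.0406) and without vehicle replicate 1 (edgeR adjusted p = 0.0021), and was nearer to 0 without Spautin-1 replicate 1, at -0.30 (edgeR adjusted p = 0.579), and without vehicle replicate 2, at -0.35 (edgeR adjusted p = 0.293). The 2 alpha genes are 96.9% identical, so their reads may be exchanged. Summed, alpha took 1.23% and 1.27% of heavy constant reads in Spautin-1 libraries and 1.27% and 1.10% in vehicle libraries, ranges that overlap.

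Transcripts of the isotypes that precede class switching were near or at 0. IGHM (chr14:105851705-105856218), the mu constant gene, had 2 and 0 reads in Spautin-1 libraries and 0 and 2 reads in vehicle libraries. IGHD, the delta constant gene, had 0 reads in the 4 libraries, which, taking 3 counts as the limit that a count of 0 allows, leaves a share of heavy constant reads of up to 0.0105% and 0.0115% in Spautin-1 libraries and up to 0.00719% and 0.00487% in vehicle libraries.

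**Figure D3:**
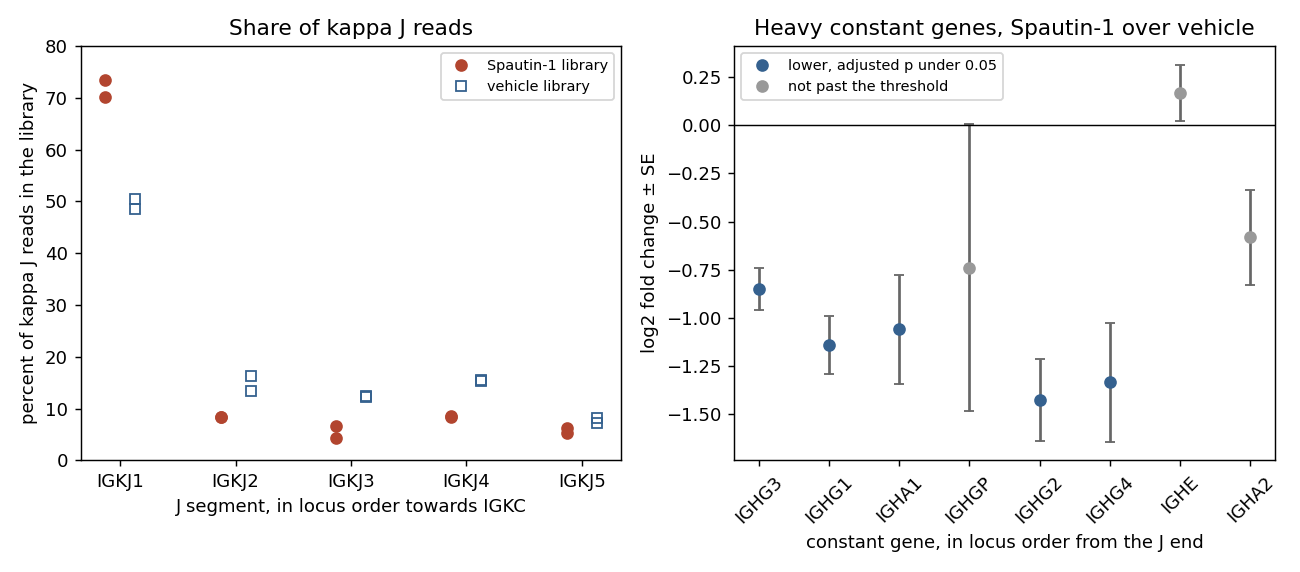
Left, percent of kappa J reads in each library taken by each J segment, in locus order towards IGKC (filled circles Spautin-1, open squares vehicle); right, log2 fold change ± standard error, Spautin-1 over vehicle, of the heavy constant genes in locus order from the J end. IGKJ1 took 70.2% and 73.5% in Spautin-1 libraries and 50.5% and 48.6% in vehicle libraries; IGHE lies above 0 between IGHG4 and IGHA2, which lie below.

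Heavy V reads, which mark the variable region of the clone, came almost wholly from IGHV4-34 and IGHV4-4. Summed over 8 segments they reached 51.1 and 44.2 CPM in Spautin-1 libraries, against 63.2 and 81.8 CPM in vehicle libraries, a log2 ratio of -0.61. It was -0.41 without vehicle replicate 2 and -0.78 without vehicle replicate 1. IGHV4-34 (chr14:106373663-106374145), a segment known for antibodies that bind sugars on red blood cells, had 30.4 and 24.5 CPM in Spautin-1 libraries, against 32.1 and 40.8 CPM in vehicle libraries. It did not pass, at a log2 fold change of -0.41 ± 0.16 (edgeR adjusted p = 0.0839), but was called lower without vehicle replicate 1, at -0.57 (edgeR adjusted p = 2.34e-05). It was nearer to 0 without vehicle replicate 2, at -0.22 (edgeR adjusted p = 0.208), and without Spautin-1 replicate 2, at -0.25 (edgeR adjusted p = 0.564). IGHV4-4 (chr14:106011922-106012420) had 20.5 and 19.5 CPM in Spautin-1 libraries, against 30.7 and 40.5 CPM in vehicle libraries. It fell by 0.83 ± 0.16 on the log2 scale (edgeR adjusted p = 0.00272).

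IGHV4-34 took 59.5% (interval 57.3 to 61.8) and 55.4% (52.9 to 57.9) of heavy V reads in Spautin-1 libraries, against 50.8% (48.6 to 52.9) and 49.9% (48.2 to 51.7) in vehicle libraries. Its share was higher in both Spautin-1 libraries, by 7.13 percentage points on average, and by 5.05 points without Spautin-1 replicate 1. For every 100 IGHV4-4 reads there were 149 and 126 IGHV4-34 reads in Spautin-1 libraries, against 105 and 101 in vehicle libraries. The V exons of the pair are 93.4% identical, so that the 2 rows may exchange reads. Whether both segments are expressed was not tested. The ratio of IGHV4-4 to IGHG3 overlapped between the groups: there were 3.96 and 3.81 IGHV4-4 reads per 100 IGHG3 reads in Spautin-1 libraries, against 3.75 and 3.92 in vehicle libraries. That overlap did not extend to IGHV4-34. In Spautin-1 libraries it had 1142 and 848 reads beside 19409 and 17708 IGHG3 reads. In vehicle libraries it had 1114 and 1578 reads beside 28437 and 39994 IGHG3 reads. The pseudogene IGHV5-78 was the other tested heavy V row, with 2 and 6 reads in Spautin-1 libraries and 12 and 12 in vehicle libraries. The remaining 5, IGHV4-31, IGHV4-59, IGHV4-61, IGHV3-74 and IGHV3-64D, had between 0 and 5 reads a library.

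Light constant reads were mainly kappa. IGKC (chr2:88857161-88857683), the kappa constant gene, had 153 and 156 CPM in Spautin-1 libraries, against 194 and 198 CPM in vehicle libraries. It fell by 0.34 ± 0.10 on the log2 scale (edgeR adjusted p = 0.0277), and replicates lay close together in both groups. The call did not survive leaving out Spautin-1 replicate 1, at -0.34 (edgeR adjusted p = 0.249), or replicate 2, at -0.35 (edgeR adjusted p = 0.248). Kappa took 66.7% (interval 65.7 to 67.7) and 66.9% (65.8 to 67.9) of light constant reads in Spautin-1 libraries, against 59.7% (58.8 to 60.6) and 57.9% (57.0 to 58.7) in vehicle libraries. The kappa share was higher in both Spautin-1 libraries, by 8.01 percentage points on average. It is a share of constant reads, and the lambda part had few V reads beside it, as given below.

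Lambda constant genes, the alternative light chain, made up the rest. They fell together in 4 of 5 tested, against 10.5% called lower over all genes tested. Their sum was 76.5 and 77.6 CPM in Spautin-1 libraries, against 131 and 144 CPM in vehicle libraries, a log2 ratio of -0.84. Lambda constant rows held 2868 and 2687 reads in Spautin-1 libraries and 4555 and 5577 in vehicle libraries. Lambda V rows held 6 and 9 reads in Spautin-1 libraries and 19 and 18 in vehicle libraries. Whether the lambda constant reads come from an expressed lambda chain was not tested. IGLC3 (chr22:22906342-22906803), the most abundant, had 35.3 and 37.9 CPM in Spautin-1 libraries, against 67.3 and 75.3 CPM in vehicle libraries, and fell by 0.96 ± 0.12 on the log2 scale (edgeR adjusted p = 0.000259). IGLC2 (chr22:22900976-22901437) is 99.1% identical to IGLC3 over its length, so that the 2 rows may exchange reads. It fell by 0.87 ± 0.14 (edgeR adjusted p = 0.0013).

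IGLC7 (chr22:22922594-22923034) had 4.19 and 4.01 CPM in Spautin-1 libraries, against 7.0 and 6.88 CPM in vehicle libraries, a log2 fold change of -0.76 ± 0.21 (edgeR adjusted p = 0.022). The call was lost without Spautin-1 replicate 1 (edgeR adjusted p = 0.0842) and without replicate 2 (edgeR adjusted p = 0.145). The pseudogene IGLC5 did not pass at 0.14 ± 0.44 (edgeR adjusted p = 0.856), and its value was below 0 when Spautin-1 replicate 2 (-0.13) or vehicle replicate 1 (-0.19) was left out. IGLC6 had 5 to 12 reads a library. IGLC4 had 3 reads in vehicle replicate 1 and 0 in the other libraries.

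IGLL5 and IGLC1 share exons. IGLL5 (chr22:22887780-22896111), an immunoglobulin lambda-like gene whose last exon is shared with IGLC1, shares 460 exonic bases with IGLC1 (chr22:22895375-22895834) and 122 with IGLJ1. It had 28.2 and 25.6 CPM in Spautin-1 libraries, against 39.0 and 45.3 CPM in vehicle libraries, and fell by 0.65 ± 0.14 on the log2 scale (edgeR adjusted p = 0.00539). IGLC1 fell by 0.64 ± 0.14 (edgeR adjusted p = 0.00801). The calls are not independent of each other: IGLC1 and IGLJ1 together had 89.8 and 85.4 reads per 100 IGLL5 reads in Spautin-1 libraries, against 89.1 and 88.9 in vehicle libraries. Without Spautin-1 replicate 2, neither IGLL5 (-0.57, edgeR adjusted p = 0.105) nor IGLC1 (-0.54, edgeR adjusted p = 0.142) was called.

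Light V reads came mainly from the kappa segment IGKV3-20. Summed over 30 segments they were 46.1 and 46.2 CPM in Spautin-1 libraries, against 60.6 and 59.5 CPM in vehicle libraries, a log2 ratio of -0.38. IGKV3-20 (chr2:89142574-89143160) had 42.8 and 42.9 CPM in Spautin-1 libraries, against 54.2 and 53.2 CPM in vehicle libraries. The groups did not overlap, and the log2 fold change of -0.33 ± 0.12 did not pass (edgeR adjusted p = 0.0663). The log2 fold change was -0.33 without Spautin-1 replicate 1 and -0.32 without Spautin-1 replicate 2. It was -0.31 without vehicle replicate 1 and -0.34 without vehicle replicate 2. The ratio of IGKV3-20 to IGKC overlapped between the groups: there were 27.9 and 27.4 IGKV3-20 reads per 100 IGKC reads in Spautin-1 libraries, against 27.9 and 26.9 in vehicle libraries.

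The other light V rows were far lower. IGKV3-20 took 92.7% (interval 91.4 to 93.9) and 92.9% (91.5 to 94.1) of light V reads in Spautin-1 libraries, against 89.4% (88.0 to 90.7) and 89.4% (88.0 to 90.6) in vehicle libraries. IGKV3-15 (chr2:89085177-89085787) had 1.73 and 1.44 CPM in Spautin-1 libraries, against 2.22 and 2.64 CPM in vehicle libraries, at a log2 fold change of -0.61 ± 0.32 (edgeR adjusted p = 0.202). IGKV3-7 (chr2:88978468-88979081) had 0.880 and 0.981 CPM in Spautin-1 libraries, against 1.84 and 1.79 CPM in vehicle libraries, at -0.96 ± 0.38 (edgeR adjusted p = 0.0927). Neither passed, and both resemble IGKV3-20, at 93.9% and 93.0% of V exon bases.

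The orphon IGKV3OR2-268 (chr2:87338511-87339035), a copy outside the kappa locus that is 94.6% identical to IGKV3-20, had 8 and 8 reads in Spautin-1 libraries, against 30 and 34 reads in vehicle libraries. It was called lower, at a log2 fold change of -1.96 ± 0.64 (edgeR adjusted p = 0.0449). The call did not hold with any library left out (edgeR adjusted p of 0.128 to 0.162). Lambda V rows held 0.347% and 0.562% of light V reads in Spautin-1 libraries, against 0.902% and 0.783% in vehicle libraries. IGLV3-1 (chr22:22880706-22881396) had the most, with 0 and 0 reads in Spautin-1 libraries and 7 and 4 reads in vehicle libraries. These counts are too low for any of the 12 lambda V rows to be tested.

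Of 5 kappa J segments, 1 was called higher and 3 lower, against 11.5% higher and 10.5% lower over all genes tested. Their sum was 28.4 and 31.4 CPM in Spautin-1 libraries, against 31.8 and 26.6 CPM in vehicle libraries, and the groups overlapped. IGKJ1 had 19.9 and 23.1 CPM in Spautin-1 libraries, against 16.1 and 12.9 CPM in vehicle libraries. It rose by 0.57 ± 0.16 on the log2 scale (edgeR adjusted p = 0.0266). The call was lost without Spautin-1 replicate 1 (0.66, edgeR adjusted p = 0.0554) and without Spautin-1 replicate 2 (0.47, edgeR adjusted p = 0.246).

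The kappa J segments called lower lie nearer to IGKC than IGKJ1 does. IGKJ2 had 2.40 and 2.66 CPM in Spautin-1 libraries, against 4.29 and 4.35 CPM in vehicle libraries, at a log2 fold change of -0.77 ± 0.25 (edgeR adjusted p = 0.0446). IGKJ3 had 1.87 and 1.36 CPM in Spautin-1 libraries, against 3.97 and 3.26 CPM in vehicle libraries, at -1.16 ± 0.30 (edgeR adjusted p = 0.0169). IGKJ4 had 2.43 and 2.66 CPM in Spautin-1 libraries, against 4.90 and 4.12 CPM in vehicle libraries, at -0.83 ± 0.25 (edgeR adjusted p = 0.0357). IGKJ5, the nearest to IGKC, was not called, at -0.40 ± 0.33 (edgeR adjusted p = 0.43). Without Spautin-1 replicate 1 the calls of IGKJ2 (edgeR adjusted p = 0.204) and IGKJ4 (edgeR adjusted p = 0.157) were lost. Without Spautin-1 replicate 2 those of IGKJ2, IGKJ3 and IGKJ4 were lost (edgeR adjusted p of 0.114 to 0.14). Without vehicle replicate 1 that of IGKJ4 was lost (edgeR adjusted p = 0.0843), and without vehicle replicate 2 that of IGKJ2 (edgeR adjusted p = 0.0571).

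As a share of kappa J reads, IGKJ1 stood at 70.2% (interval 67.3 to 72.9) and 73.5% (70.7 to 76.1) in Spautin-1 libraries, against 50.5% (47.5 to 53.4) and 48.6% (45.5 to 51.7) in vehicle libraries. There were 13.01 and 14.8 IGKJ1 reads per 100 IGKC reads in Spautin-1 libraries, against 8.26 and 6.52 in vehicle libraries. The groups were apart on both measures. The row of IGKJ2 has the same 4 counts as ENSG00000240040, an unnamed gene that contains its 39 bases, so the 2 rows cannot be told apart.

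Of 4 tested lambda J segments, which join lambda V segments to the lambda constant genes, 3 fell, against 10.5% over all genes tested. Their sum over 5 rows was 23.1 and 24.3 CPM in Spautin-1 libraries, against 45.1 and 48.0 CPM in vehicle libraries. IGLJ3 (chr22:22904850-22905025) led with 16.4 and 17.4 CPM in Spautin-1 libraries, against 31.4 and 33.96 CPM in vehicle libraries, at a log2 fold change of -0.95 ± 0.14 (edgeR adjusted p = 0.000595). IGLJ2 (chr22:22899481-22899655), 97.1% identical to it in the annotated transcript, was at -1.36 ± 0.26 (edgeR adjusted p = 0.0034). IGLJ1 (chr22:22893692-22893818) was at -0.87 ± 0.26 (edgeR adjusted p = 0.0301), a call lost without Spautin-1 replicate 2 (edgeR adjusted p = 0.22), and its reads are shared with IGLL5. IGLJ7 (chr22:22921390-22921435) did not pass at -0.80 ± 0.29 (edgeR adjusted p = 0.0644). IGLJ3 took 71.1% and 71.9% of lambda J reads in Spautin-1 libraries, against 69.6% and 70.8% in vehicle libraries.

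Short genes inside the heavy constant exons had reads as well. MIR8071-1 is annotated on the opposite strand within an exon of IGHG4 over 65 bases, and had 18 and 12 reads in Spautin-1 libraries, against 41 and 89 reads in vehicle libraries. That is 11.6 and 13.5 MIR8071-1 reads per 100 IGHG4 reads in Spautin-1 libraries, against 19.8 and 21.0 in vehicle libraries. MIR8071-2, in the same position in IGHG2, had 0 and 0 reads in Spautin-1 libraries and 7 and 5 reads in vehicle libraries. In the whole table, none of 243 genes that lie inside an exon of a gene on the other strand, and none of 565 inside an exon on the same strand, had more reads than the gene around it. Reads of MIR8071-1 therefore cannot be told apart from reads of IGHG4 in these counts.

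For scale, the T-cell receptor loci, which B cells do not rearrange, had reads in 12 of 233 segments, summing to 41 and 19 reads in Spautin-1 libraries and 39 and 47 reads in vehicle libraries. Of these the gamma-chain segment TRGV4 held 51 over the 4 libraries. The 12 lambda V rows together held 6 and 9 reads in Spautin-1 libraries and 19 and 18 reads in vehicle libraries, fewer than the T-cell receptor rows in each library.

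Genes whose products transcribe, recombine, process, assemble or secrete immunoglobulin were listed apart from the segments. Of 55 such genes 50 were tested, and 15 rose and 7 fell (edgeR adjusted p under 0.05), against 11.5% called higher and 10.5% called lower over all genes tested. Their median log2 fold change was 0.07, against -0.01 over all genes tested. VPREB1, of the surrogate light chain, and VPREB3 had too few reads to be tested. So had RAG1, RAG2 and DNTT, which act in V(D)J recombination. Of 23 transcription regulators 10 rose and 4 fell. Of 4 tested genes of recombination and mutation, 2 fell. Of 15 genes of assembly and secretion in the endoplasmic reticulum, 5 rose and 0 fell.

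PRDM1 (chr6:105993463-106109939), which encodes BLIMP-1, the driver of plasma cell differentiation, had 114 and 127 CPM in Spautin-1 libraries, against 18.4 and 19.0 CPM in vehicle libraries, at a log2 fold change of 2.69 ± 0.12 (edgeR adjusted p = 9.81e-08). IRF4 (chr6:391739-411443), which acts with it, had 75.0 and 77.7 CPM in Spautin-1 libraries, against 34.2 and 28.7 CPM in vehicle libraries, at 1.28 ± 0.13 (edgeR adjusted p = 4.34e-05). BCL6 (chr3:187721377-187745725), the germinal-centre repressor that opposes PRDM1, had 27.5 and 28.0 CPM in Spautin-1 libraries, against 46.2 and 48.1 CPM in vehicle libraries, at -0.76 ± 0.12 (edgeR adjusted p = 0.00116). Summed over 8 plasma-cell markers, a list that holds PRDM1, levels were 968 and 1143 CPM in Spautin-1 libraries, against 499 and 765 CPM in vehicle libraries. Most of that sum was XBP1, a transcription factor of secretory cells, with 781 and 943 CPM in Spautin-1 libraries, against 422 and 691 CPM in vehicle libraries. XBP1 was called higher at a log2 fold change of 0.63 ± 0.18 (edgeR adjusted p = 0.0231), but not with DESeq2 (adjusted p = 0.235), and the value was 0.32 without vehicle replicate 1 and 1.03 without vehicle replicate 2. MZB1, a cochaperone of antibody assembly on the same list, lay lower in both Spautin-1 libraries and did not pass, at -0.38 ± 0.15 (edgeR adjusted p = 0.0837). SDC1, TNFRSF17 and CD38, which mark plasma cells, averaged under 1 CPM. Their part in the levels of the segments was not tested.

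The octamer-binding factor POU2F2 (OCT-2, chr19:42086110-42196585) acts on immunoglobulin promoters with its coactivator POU2AF1 (chr11:111352255-111455630), and the 2 moved apart. POU2F2 had 172 and 167 CPM in Spautin-1 libraries, against 241 and 271 CPM in vehicle libraries, at a log2 fold change of -0.60 ± 0.10 (edgeR adjusted p = 0.00177). POU2AF1 had 25.0 and 24.8 CPM in Spautin-1 libraries, against 9.42 and 10.5 CPM in vehicle libraries, at 1.32 ± 0.15 (edgeR adjusted p = 0.000113). Among other regulators, ID2 (chr2:8678845-8684461), which blocks E-protein transcription factors, rose by 2.73 ± 0.34 on the log2 scale (edgeR adjusted p = 0.000195), and ETS1 (chr11:128458761-128587558) by 0.72 ± 0.10 (edgeR adjusted p = 0.000542). ID2 had 4.48 and 3.67 CPM in Spautin-1 libraries, against 0.547 and 0.673 CPM in vehicle libraries. Its vehicle level rests on 19 and 26 reads. SPIB (chr19:50418938-50431314), an Ets-family factor of B cells, was at -0.62 ± 0.15 (edgeR adjusted p = 0.0124), a call lost without Spautin-1 replicate 1 (edgeR adjusted p = 0.107) or replicate 2 (edgeR adjusted p = 0.103).

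UNG (chr12:109097597-109126725), the uracil glycosylase that excises uracil from DNA, fell by 1.0 ± 0.17 on the log2 scale (edgeR adjusted p = 0.00146). MSH6 (chr2:47695530-47810063), a mismatch repair gene, was at -0.39 ± 0.10 (edgeR adjusted p = 0.0122), which was not called without Spautin-1 replicate 1 (edgeR adjusted p = 0.129) or replicate 2 (edgeR adjusted p = 0.0926). CSTF2 (chrX:100820391-100841520) encodes a cleavage stimulation factor that acts in choosing the polyadenylation site of heavy-chain mRNA. It had 95.6 and 98.9 CPM in Spautin-1 libraries, against 132 and 118 CPM in vehicle libraries, at a log2 fold change of -0.36 ± 0.11 (edgeR adjusted p = 0.033). The call was lost without Spautin-1 replicate 1 (edgeR adjusted p = 0.267) or replicate 2 (edgeR adjusted p = 0.237).

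Transcripts of the receptor partners CD79A and CD79B and of the joining chain gene JCHAIN did not pass. CD79A (chr19:41877279-41881372) and CD79B (chr17:63928738-63932336) form the signalling pair of the B-cell receptor. CD79A had 23.9 and 25.7 CPM in Spautin-1 libraries, against 19.0 and 26.9 CPM in vehicle libraries (edgeR adjusted p = 0.693), and it was called higher without vehicle replicate 2 (0.38, edgeR adjusted p = 0.035) and lay below 0, not called, without vehicle replicate 1 (-0.12, edgeR adjusted p = 0.561). CD79B had 12.8 and 12.7 CPM in Spautin-1 libraries, against 16.9 and 17.1 CPM in vehicle libraries (edgeR adjusted p = 0.0685). Its log2 fold change was -0.42. It was -0.43 without Spautin-1 replicate 1 and -0.40 without Spautin-1 replicate 2. Without vehicle replicate 1 it was -0.43, and without vehicle replicate 2 it was -0.41. JCHAIN (chr4:70655541-70681817), which joins IgM and IgA into polymers, had 12.5 and 14.4 CPM in Spautin-1 libraries, against 10.6 and 8.18 CPM in vehicle libraries, at a log2 fold change of 0.52 ± 0.18 (edgeR adjusted p = 0.0614). It was called higher without vehicle replicate 1 (0.72, edgeR adjusted p = 0.00121), and stood at 0.35 without vehicle replicate 2 (edgeR adjusted p = 0.163).

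Among chaperones of the endoplasmic reticulum, DNAJB9, ERP29, HSPA5, DNAJC3 and HSP90B1 were the 5 that rose; all but DNAJB9 were named after their values were seen. HSPA5, or BiP, which holds unpaired heavy chains, had 814 and 815 CPM in Spautin-1 libraries, against 589 and 632 CPM in vehicle libraries (edgeR adjusted p = 0.00534). Without Spautin-1 replicate 2, HSPA5 (edgeR adjusted p = 0.0536), ERP29 (edgeR adjusted p = 0.143), DNAJC3 (edgeR adjusted p = 0.124) and HSP90B1 (edgeR adjusted p = 0.0672) were not called. Without Spautin-1 replicate 1, DNAJC3 (edgeR adjusted p = 0.204) and HSP90B1 (edgeR adjusted p = 0.233) were not called, while DNAJB9 was called with each library left out. HSP90B1 was not called with DESeq2 (adjusted p = 0.0865), nor DNAJC3 with library size scaling (edgeR adjusted p = 0.0509). Over the whole list, the number called lower was 4 when Spautin-1 replicate 1 was left out, 3 for Spautin-1 replicate 2 and 12 for vehicle replicate 1.

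**Figure D4:**
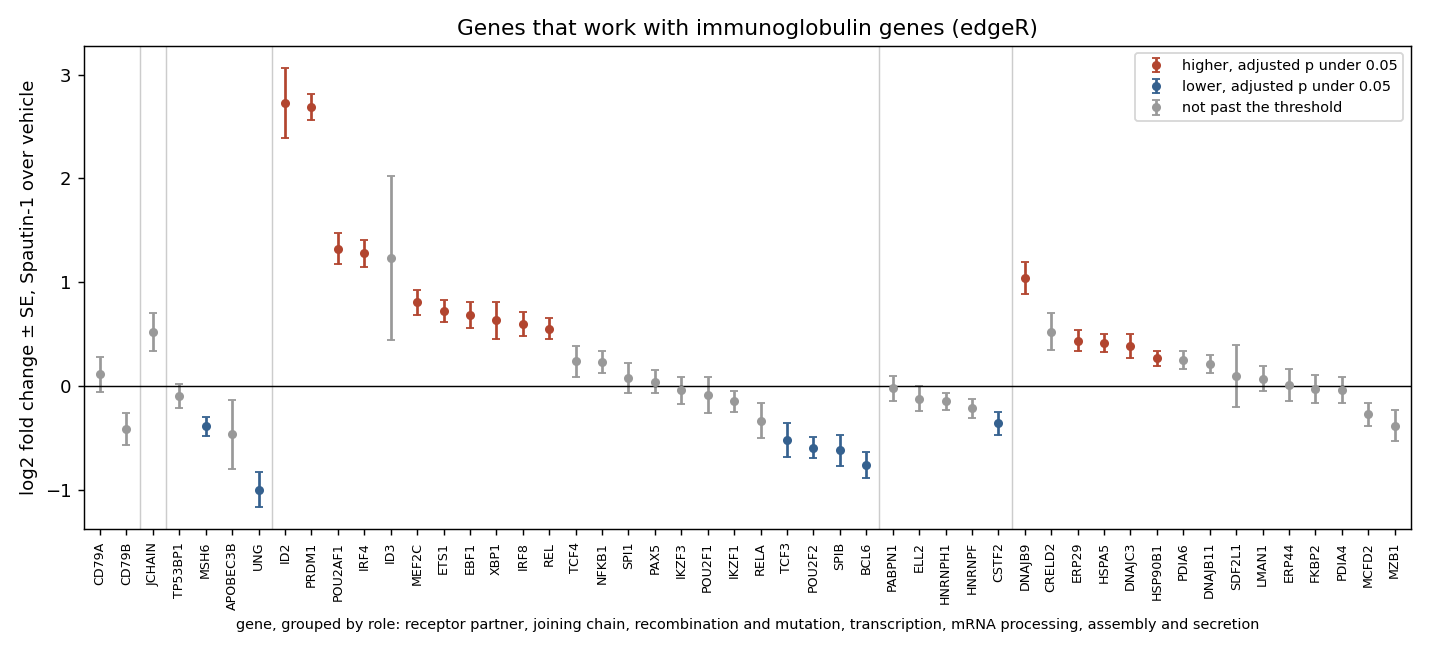
Log2 fold change ± standard error, Spautin-1 over vehicle, of the 50 tested genes that work with immunoglobulin genes, grouped by role. The 15 red points rose and the 7 blue points fell; PRDM1 and ID2 lie highest, and UNG lies lowest.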

How the data were processed

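Reads were trimmed with Trimmomatic 0.36 and counted per gene with featureCounts (Subread 1.5.1) on GRCh38, and edgeR 3.12.1 is named, per the submitters' processing notes. Per the labels' protocols, the libraries were stranded mRNA libraries. Not given in the sources used here: aligner, strand setting, treatment of multi-mapped reads and counting of pairs. The deposited values are raw read counts per gene, with coordinates and exonic length per the file headers. In each library 2519 to 2748 genes had 2 reads and 676 to 758 had 1. Likewise, 1294 to 1362 genes had 4 reads and 389 to 423 had 3. If mates of a pair were counted separately, counting intervals are too narrow and the limit of 3 counts is too low.

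Counts were fitted in R 4.3.3 with edgeR 4.0.16: filterByExpr by group (minimum count 10, minimum total 15), TMM scaling, quasi-likelihood F test, two-sided, Benjamini-Hochberg adjustment over 18368 genes, threshold 0.05, with 2 residual degrees of freedom. The procedure was tested on simulated data. Sums and shares had no test; intervals are exact (95%). A count of 0 was given a limit of 3 counts. Every called segment is named, as is every segment averaging at least 1 CPM and the most abundant of each class; of the genes working with immunoglobulin, CD79A, CD79B, JCHAIN and the 6 smallest p-values in each direction are named. TRADD, whose name resembles a T-cell receptor segment, was left out. Segments and lists were chosen with earlier results of these data known, and a few listed genes are not reported here and are left out of the counts and sums of their lists. GENCODE 29 matched 66 of 66 segments by symbol, 64 with the same coordinates. Alternatives were RLE, upper quartile and library size scaling, other filters, DESeq2 1.42.0, limma-voom (limma 3.58.1), a replicate block, leaving out each library, and sums per kilobase or without some members.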

Additional observations from a re-analysis of the deposited data

How the results depend on the processing

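Of 18368 genes, 4045 were called with all libraries and 1847 to 5766 with a library left out, the fewest without Spautin-1 replicate 2. Segments called lower numbered 10 to 20 and those called higher 0 to 2 with a library left out; with other scalings, filters or tools, 16 (DESeq2) to 20 were lower. Genes working with immunoglobulin called higher numbered 11 to 21, and those called lower 3 to 12. The log2 ratio of light V reads was -0.38, and it was -0.42 with library size scaling and -0.94 without IGKV3-20. The epsilon share differed by 3.28 percentage points as counted and by 5.33 per kilobase. With a library left out, log2 fold changes ran from -0.032 to 0.40 for IGHE, from -0.19 to 0.58 for IGLC5 and from -0.12 to 0.38 for CD79A, and the values below 0 were not called. They came without vehicle replicate 1, and for IGLC5 also without Spautin-1 replicate 2 (-0.13). IGKV3OR2-268 was not called with DESeq2 (adjusted p = 0.0599) or limma-voom (adjusted p = 0.0536), IGKJ2 with DESeq2 (adjusted p = 0.0703) or limma-voom (adjusted p = 0.0507), or IGKJ4 with DESeq2 (adjusted p = 0.0509). IGKV3-20 was called lower with library size scaling (edgeR adjusted p = 0.0462) and with at least 1 CPM in 2 libraries (edgeR adjusted p = 0.0457), and IGHV4-34 with no filter (edgeR adjusted p = 0.0414). The cause of these changes was not tested. A fit that leaves out a library takes the lone library to vary like the other group.

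Replicate numbers are not stated to pair the libraries, and deviations from the group means of same-numbered libraries had a correlation of -0.0015 across 18368 genes. With the replicate number as a block, 5100 genes, 22 lower and 1 higher segment, and 18 higher and 8 lower genes working with immunoglobulin were called. The block added calls of the segments IGHA2 (edgeR adjusted p = 0.0254), IGHV4-34 (edgeR adjusted p = 0.0238) and IGLJ7 (edgeR adjusted p = 0.0475), and, among the genes working with immunoglobulin that are named as not passing, of JCHAIN (edgeR adjusted p = 0.0223).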

Other observations

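Other genes annotated within the span of the 3 loci were looked at after their values were seen. Of 25 with a read, 12 were tested, 1 was called higher and 3 lower, against 11.5% higher and 10.5% lower over all genes tested. The higher one is ENSG00000290104, an unnamed gene on the minus strand of chromosome 2 (chr2:88864876-88866196), 2952 bases from IGKJ1 on the side away from IGKC. It had 52.3 and 52.1 CPM in Spautin-1 libraries, against 27.8 and 23.7 CPM in vehicle libraries, at a log2 fold change of 1.02 ± 0.13 (edgeR adjusted p = 0.000265). The lower ones were MIR8071-1 (-2.07 ± 0.51), ENSG00000290846 in the kappa locus (-1.66 ± 0.49) and ENSG00000279278 in the lambda locus (-1.14 ± 0.38). Their counts were low. ENSG00000290846 had 23 and 12 reads in Spautin-1 libraries, against 56 and 56 in vehicle libraries (edgeR adjusted p = 0.0288). ENSG00000279278 had 54 and 28 reads in Spautin-1 libraries, against 96 and 86 in vehicle libraries (edgeR adjusted p = 0.0475). MIR8071-1 lies within an exon of IGHG4, and its call is not separate from that of IGHG4.

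ENSG00000274422, an unnamed gene on the minus strand of the lambda locus (chr22:22283928-22287220), had 1730 and 1487 reads in Spautin-1 libraries, against 1975 and 2055 reads in vehicle libraries. IGKV3-20 on chromosome 2 had 1604 and 1487 reads in Spautin-1 libraries, against 1882 and 2055 reads in vehicle libraries. The counts of the 2 genes are equal in replicate 2 of each group, and the 2 share no annotated bases.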
